A study of Mus musculus with 68 samples.

Results

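A set of 10 genes, called the endoderm transport genes here, was followed through 8 tables of gene expression from mouse oocytes and embryos: Apoe, Apoc2, Apoa1, Apob, Afp, Ttr, Rbp4, Spink3, Cubn and Amn. They were chosen by name, as genes for proteins that the visceral endoderm secretes or uses for uptake, and are 10 of 24941 genes named in the tables. All 10 had a row in 5 tables, and 4 of them (Afp, Apoc2, Apoe and Cubn) in the tables of 1-cell, late 2-cell and 8-cell embryos. Libraries came from Smart-seq2, which copies whole polyadenylated transcripts out of very little RNA, and the values are FPKM, fragment counts scaled to gene length and library total.

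The series asked what the loss of Ezhip, an X-linked inhibitor of the histone methyltransferase complex PRC2, changes in oocytes and in the embryos they give. Oocytes labelled FGO came as 2 wild-type (WT), 2 Het and 3 KO libraries, and embryos as WT, Ezhip mHet and Ezhip mKO. There were 2 libraries of each genotype at the 1-cell stage (labelled PN5) and at the late 2-cell stage (L2C), and at the 8-cell stage (8C) 2 WT, 1 mHet and 3 mKO. E3.5 had 2 tables, with 2 libraries per genotype in the first and 5 in the second. At E4.25 there were 4 WT libraries, 4 mKO libraries and an mHet pair with identical values that was counted as 1 sample. E6.5 had 2 libraries of each genotype for the epiblast (Epi) and 2 for the extraembryonic ectoderm (ExE). The meaning of the prefix m, the deleted part of the gene, the strain, any Cre driver and how many oocytes or embryos went into a library are not stated in the labels. They do not say whether libraries are from different animals either, so the p-values refer to the spread of these samples, part of which may be technical.

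The visceral endoderm is the epithelium that wraps the early post-implantation embryo, and it grows out of the primitive endoderm of the late blastocyst. It takes up maternal protein and lipid through endocytic receptors and secretes lipoproteins and carrier proteins of the kind that the liver makes later. Epiblast and extraembryonic ectoderm are the tissues it covers, so its genes are not markers of either. Apoe, Apoc2, Apoa1 and Apob are apolipoproteins: Apob builds the lipoprotein particle, Apoa1 is the main protein of high-density lipoprotein, Apoe is a ligand of receptors of the LDL receptor family and Apoc2 activates lipoprotein lipase. Afp (alpha-fetoprotein), Ttr (transthyretin, a carrier of thyroid hormone) and Rbp4 (the retinol carrier) are secreted carriers, and Spink3 is a secreted inhibitor of trypsin. Cubn (cubilin) and Amn (amnionless) together form a multi-ligand uptake receptor.

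Across the series, libraries held between 4940 and 9804 genes at 1 FPKM or more, and the read depth is unknown because FPKM keep no totals. Rn45s, the ribosomal RNA precursor, took 9.19% to 69.5% of summed FPKM in the second E3.5 table. At E4.25 its share ran from 11.7% to 68.6%, and a high share lowers all other values. Ezhip itself was at 297 to 546 FPKM in WT oocytes and at most 0.175 in KO oocytes, and at 251 and 368 against at most 0.933 at PN5. It was at most 0.772 at E6.5 and checks no label there. The tissue labels were borne out by other genes: 9 of 9 extraembryonic ectoderm markers were higher in ExE, and 6 of 9 epiblast markers were lower (limma, adjusted p at or under 0.05).

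Promoter sequence was read for 8 of the 10 genes, from RefSeq on build GRCm38.p6, whereas the submitters' processing notes name mm9. The 250 bases before the start of transcription are shown for Apoa1 and Cubn, which stood high together in 1 E6.5 library, and for Afp, which did not. Capitals mark matches on either strand to motif letters of factors known in endoderm. These were CAAAGNNCA (a relaxed HNF4 site) and TGTTTNC (a FOXA site). The windows are chr9:46228380-46228629 on the plus strand for Apoa1, chr2:13491877-13492126 on the minus strand for Cubn, and chr5:90490464-90490713 on the plus strand for Afp.
Apoa1: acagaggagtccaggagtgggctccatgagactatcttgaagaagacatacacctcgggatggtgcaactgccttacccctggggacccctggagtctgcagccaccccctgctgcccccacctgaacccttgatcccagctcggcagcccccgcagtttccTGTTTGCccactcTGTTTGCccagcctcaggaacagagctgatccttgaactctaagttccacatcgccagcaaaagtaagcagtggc
Cubn: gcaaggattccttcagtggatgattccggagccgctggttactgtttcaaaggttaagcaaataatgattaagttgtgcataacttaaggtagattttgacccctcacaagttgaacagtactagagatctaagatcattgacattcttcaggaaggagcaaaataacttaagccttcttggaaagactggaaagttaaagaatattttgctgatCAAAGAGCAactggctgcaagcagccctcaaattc
Afp: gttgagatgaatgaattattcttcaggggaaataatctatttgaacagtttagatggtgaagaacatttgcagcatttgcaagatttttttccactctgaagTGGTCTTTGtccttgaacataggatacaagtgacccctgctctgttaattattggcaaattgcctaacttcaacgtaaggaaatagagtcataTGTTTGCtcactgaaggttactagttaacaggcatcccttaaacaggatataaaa
The Apoa1 window held 2 FOXA matches, starting 88 and 75 bases before the start, and the Cubn window 1 relaxed HNF4 match, starting 35 bases before it. Afp held a match to each, although its transcript was near 0 in nearly every library. The relaxed HNF4 letters occur in 5.49% of the 32851 windows of this length in the table and the FOXA letters in 17.8%. Among the 8 genes they were found in 3 (Afp, Apob and Cubn) and 4 (Afp, Apoa1, Apob and Rbp4). Apoc2 and Amn also stood high in the library where Apoa1 and Cubn did, and their windows, not shown, held neither. The letters AGATAA, which GATA factors bind, and the full HNF4 letters CAAAGTCCA were found in 0 of the 8 genes, against 9.99% and 0.384% of all windows. Apoe and Rbp4 have more than 1 window, so counts of genes and shares of windows are on different bases. No overlap between the marked matches occurs in the 3 sequences shown, and a match is a description of letters only.

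The 4 apolipoproteins followed different courses over development, on the FPKM scale and with no test across tables, which were normalized separately. Apoe was above 0 in every library and had the highest median of the 10 genes at each stage except L2C and 8C, where Apoc2 stood higher. Its median over libraries was 5.41 FPKM in FGO oocytes, 1.33 at PN5, 7.06 at L2C and 6.34 at 8C. It then stood at 128 in the first and 54.6 in the second E3.5 table, 31.0 at E4.25, 64.1 in E6.5 epiblast and 184 in E6.5 ExE. From E3.5 on, the median rank of Apoe was above 95.2% to 98.9% of the genes of a library. In oocytes the Apoe values fell into a low set (WT 1.39, Het 1.10 and KO 1.15) and a higher one (WT 6.27, Het 6.93, KO 5.41 and 7.94), and each genotype was in both.

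Apoc2 had no signal in the 1-cell table and was present in every late 2-cell library. It was listed at 0 in all 6 PN5 libraries and reached at most 0.146 FPKM in oocytes. All 6 L2C libraries held it, with the WT pair at 7.05 and 12.9 FPKM, the mHet pair at 6.02 and 17.8 and the mKO pair at 14.6 and 19.4. The 8C libraries were at 10.2 and 8.54 in WT, 5.48 in mHet and 5.34, 3.92 and 7.46 in mKO. Its median was 3.73 in the first and 2.39 in the second E3.5 table, and at E4.25 no library reached 1 FPKM. In 2 tables, fragments of Apoc2 also appear under a row named by a RefSeq accession of the same gene. In the 14 libraries with a value above 0 that row stood at 0.868 of Apoc2 throughout, so the rows count the same fragments.

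Apoa1 had its highest values in the E3.5 blastocyst libraries. It was below 1 FPKM in every oocyte library and was not analysed here at PN5, L2C and 8C. All 21 E3.5 libraries held it, from 4.48 to 49.0 FPKM in the first table and from 3.47 to 39.9 in the second. At E4.25 the highest of 9 libraries was at 0.856 FPKM, so the E3.5 and E4.25 ranges did not overlap. With Rn45s removed and the rest rescaled, the E3.5 medians were 24.5 and 11.4. Apob did not exceed 0.220 FPKM in any library of the series.

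The carriers and the trypsin inhibitor were low in most libraries. Afp was above 0 in all 7 oocyte and all 6 PN5 libraries, at medians of 0.230 and 0.278 FPKM, and its median was 0 at each later stage. It reached 1 FPKM in 2 libraries of the series, KO oocyte library 3 at 2.38 and E4.25 WT library 1 at 1.00. Ttr and Rbp4 were listed at 0 in every oocyte and E4.25 library, and their highest values, 6.33 and 4.78 FPKM, were both in 1 E6.5 ExE library. Spink3 was above 0 in 1 of the 15 libraries of the second E3.5 table, at 0.675 FPKM, in none of the first and in none of the oocyte table. At E4.25 its median was 1.92 FPKM, with 7 of 9 libraries above 0.

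The receptor genes Cubn and Amn had low values at most stages, and their highest single libraries were at E4.25. Cubn had a median of 0.594 FPKM in the first E3.5 table, 0.562 in the second and 0.95 at E4.25, with a highest value of 6.86. Amn was at or below 0.354 FPKM in all libraries of the first E3.5 table and had a median of 0.753 at E4.25, with a highest value of 13.5, against a median of 0.941 in E6.5 ExE. The plot of levels by stage shows all of these values.

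**Figure D1:**
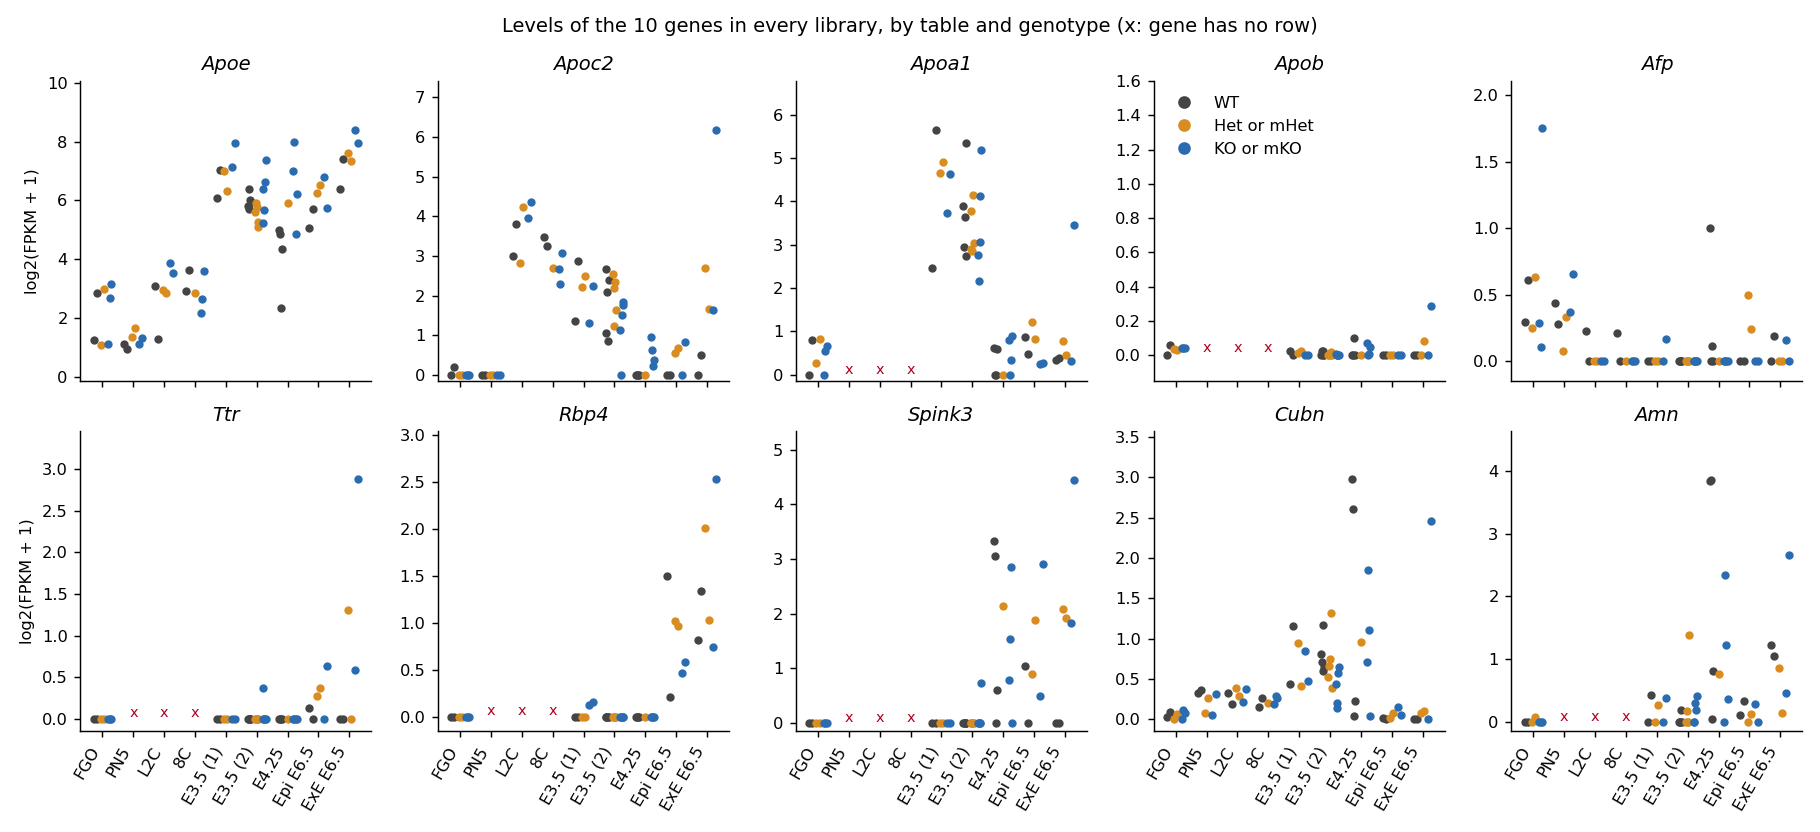
Each panel plots log2(FPKM + 1) of 1 gene (vertical axis) against table or tissue (horizontal axis), with 1 point per library coloured by genotype, and a red x where the gene has no row. Apoe is present throughout, Apoc2 starts at L2C, Apoa1 is high at E3.5, and 7 genes other than Apoe have their highest E6.5 value, above 1 FPKM, in a single mKO ExE library.

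At E6.5 the genes other than Apoe were read library by library, because neither dissected tissue is visceral endoderm. A single library, mKO ExE library 2, held most of the signal. The 9 genes without Apoe summed to 123 FPKM there, against 2.37 to 14.8 in the other 5 ExE libraries and 0.801 to 8.62 in the 6 epiblast libraries. Ranked by the log2 gap between this library and the highest of the other ExE libraries, over 23664 genes, Apoc2 was 2nd, Apoa1 8th, Cubn 9th, Spink3 10th, Ttr 18th and Amn 21st. Rbp4 was 264th and Apob 1084th, and Apoe and Afp had no gap in its favour.

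Apoc2 stood at 71.1 FPKM in mKO ExE library 2, with mKO library 1 at 2.11, mHet at 5.49 and 2.16 and WT at 0 and 0.428. Spink3 stood at 20.7 in that library, with mKO library 1 at 2.55, mHet at 3.25 and 2.78 and WT at 0 in both. Apoa1 stood at 9.94, and the other 5 ExE libraries were between 0.248 and 0.698. Each gene was thus highest by far in the same library, while WT ExE lay at or near 0 for Apoc2 and Spink3. Amn was at 5.35 there, against 1.35 and 1.06 in WT, 0.816 and 0.102 in mHet and 0.377 in mKO library 1. Cubn was at 4.51 there and at most 0.0755 in the other ExE libraries. Ttr was at 6.33 there, with mHet library 1 at 1.47, mKO library 1 at 0.502 and the other 3 listed at 0. The highest of the other libraries differs by gene, so mKO ExE library 2 is the single ExE library in which these 6 genes stood high together. Rbp4 was closer to the rest, at 4.78 there against 3.02 in mHet library 1.

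Afp, a classical marker of this epithelium, was not part of that signal and was listed at 0 in mKO ExE library 2. Apob, the structural apolipoprotein, was highest there but near the floor, at 0.220 FPKM against at most 0.0607 in the other ExE libraries. Apoe behaved differently again, at 246 FPKM there, below the 334 of mKO ExE library 1. In the epiblast the values of the 9 genes other than Apoe were low. Spink3 reached 6.52 FPKM in mKO epiblast library 4 and 2.68 in mHet library 4, with the other 4 at 1.08 or less. Rbp4 reached 1.83 in WT epiblast library 3.

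**Figure D2:**
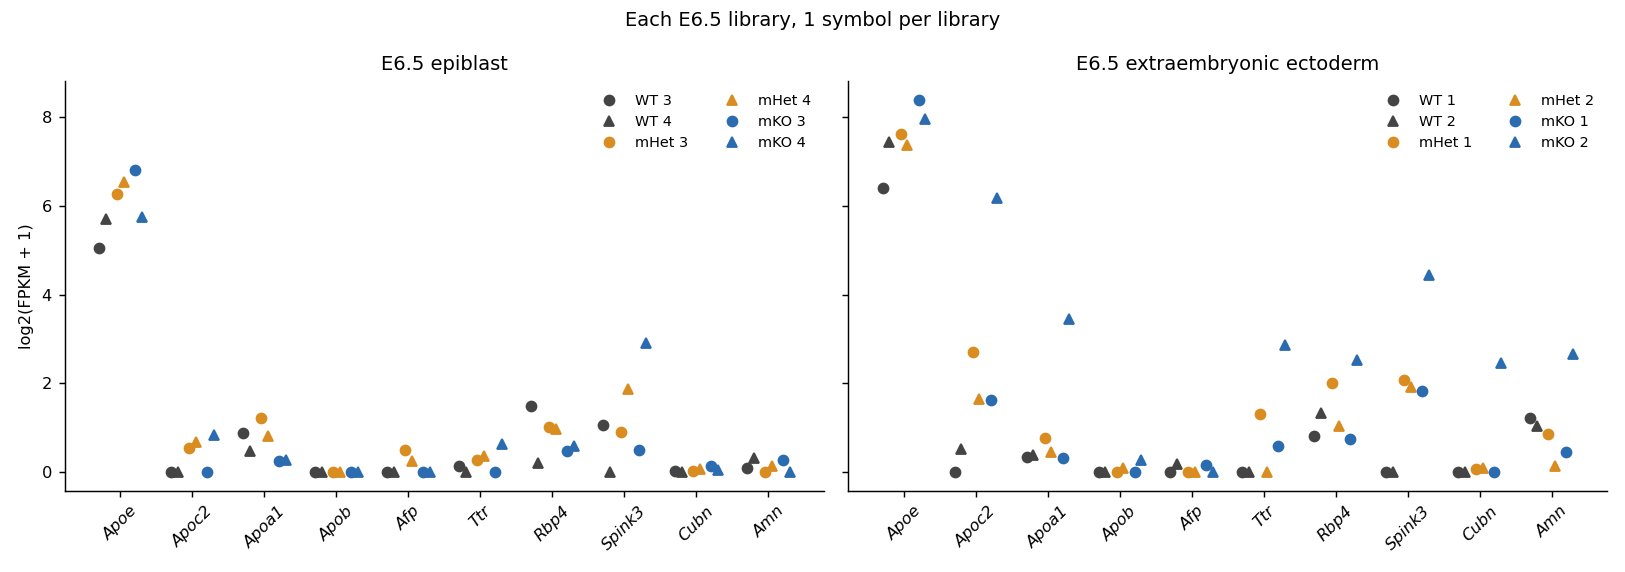
The vertical axis gives log2(FPKM + 1) and the horizontal axis the 10 genes, with 1 symbol per E6.5 library, epiblast on the left and extraembryonic ectoderm on the right. The blue triangle of mKO ExE library 2 lies above all other ExE symbols for Apoc2, Apoa1, Ttr, Rbp4, Spink3, Cubn and Amn, and Apoe is high in every library.

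A list of visceral and primitive endoderm markers that are not among the 10 genes was higher in that library than in the other ExE libraries. The 10 markers of that list summed to 7.43 FPKM in mKO ExE library 2, with 9 of 10 above 0, and to 0.204 to 1.02 in the other 5 ExE libraries. Sox17, an endoderm transcription factor, was at 1.86 FPKM there, Gata4 at 1.41, Gata6 at 0.824, Ihh at 0.732 and Hnf4a at 0.652, and Foxa1 was listed at 0. Hnf4a was below 1 FPKM there, near the floor, and was listed at 0 in all 5 other ExE libraries. The parietal endoderm list summed to 55.5 FPKM there against 17.8 to 27.5, with Sparc at 43.9. The anterior visceral endoderm list was at 1.77 FPKM there, with 2 of its 4 genes above 0, against 0.826 to 1.19 in the other ExE libraries. Its highest sums were in the mHet epiblast libraries, at 35.5 and 28.0 FPKM. The ExE markers were not lower in that library, at a sum of 449 against 294 to 369. Nor were the epiblast markers, at 352 FPKM against 232 to 316 in the other ExE libraries. The list of trophoblast giant cell and ectoplacental cone markers was also highest there, at 122 FPKM against 37.7 to 73.1, with 2 of its 6 genes above 0. The highest E6.5 sum of the visceral and primitive endoderm list was in WT epiblast library 3, at 12.8 FPKM. In that library Foxa2 alone gave 11.2 FPKM, Sox17 and Gata4 were listed at 0 and the 9 genes without Apoe summed to 3.93. The part of visceral endoderm carried along in dissection in these values was not tested, and in bulk samples fewer cells of a type and less RNA per cell cannot be told apart.

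**Figure D3:**
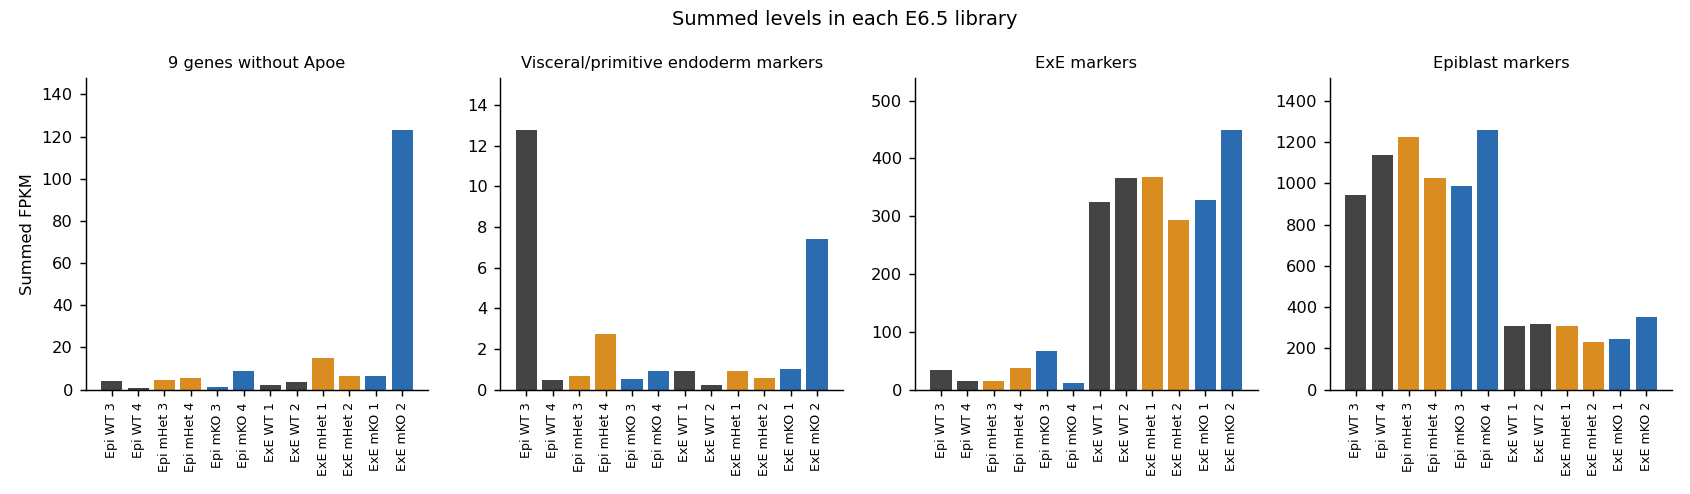
Bars give the summed FPKM (vertical axes, from 0) of 4 gene lists in each of the 12 E6.5 libraries (horizontal axes), coloured by genotype. The 9 genes without Apoe sum to 123 in mKO ExE library 2, the endoderm markers are highest in WT epiblast library 3 and mKO ExE library 2, and the lists of the 2 labelled tissues separate the libraries by tissue.

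The comparison of ExE with epiblast asked which of the genes differ between the dissected tissues. Of the 10 genes, 7 passed the filter of 1 FPKM in at least 2 libraries (all but Afp, Apob and Cubn), and 3 of the 7 were higher in ExE and 0 lower (limma, adjusted p at or under 0.05), where 33.5% of all 11028 genes tested passed in either direction and 14.2% were higher. Apoe was higher in ExE, at 199 ± 84.7 against 69.0 ± 29.2 FPKM (SD, n = 6 each; log2 difference 1.51, SE 0.27, limma adjusted p = 0.000821). The 2 highest epiblast libraries, at 111 and 91.1, overlap the lowest ExE library at 83.4. Within each genotype both ExE libraries were above both epiblast libraries.

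Apoc2 was at 13.5 ± 28.2 FPKM in ExE and 0.312 ± 0.356 in epiblast (1.77, SE 0.57, limma adjusted p = 0.0321). Amn was at 1.51 ± 1.94 and 0.109 ± 0.109 (0.92, SE 0.30, limma adjusted p = 0.0329). Both reached 1 FPKM in ExE libraries only, so they entered the test through the tissue in which they were higher, and the count of 3 supports nothing beyond these values. Without mKO ExE library 2, which leaves 1 mKO library in ExE, Apoc2 stood 1.01 higher in ExE and Amn 0.56 higher. Leaving out any 1 of 8 other libraries ended both calls (both WT libraries of each tissue, both mHet epiblast libraries, mHet ExE library 1 and mKO epiblast library 3), with adjusted p up to 0.0809, and Apoe passed with each of the 12 left out.

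Ttr (log2 difference 0.56), Spink3 (0.50), Apoa1 (0.30) and Rbp4 (0.62) did not pass (limma adjusted p from 0.157 to 0.603). Without mKO ExE library 1 the log2 differences of Apoa1, Ttr and Rbp4 were 0.82, 0.94 and 0.92. That leaves mKO ExE library 2 as the single mKO library of its tissue. Without mKO ExE library 2 Ttr and Apoa1 no longer passed the filter, Spink3 was at 0.069 and Rbp4 at 0.32.

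**Figure D4:**
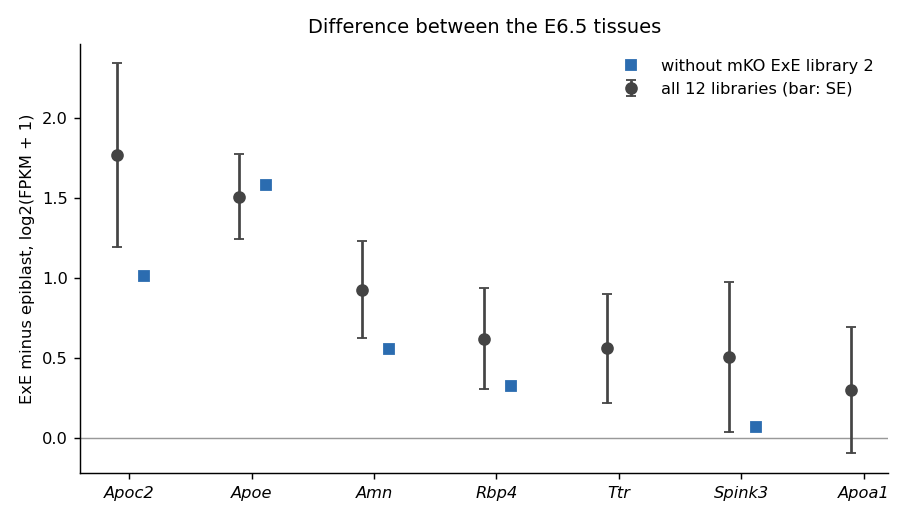
The vertical axis gives the ExE minus epiblast difference in log2(FPKM + 1) for the 7 genes kept (horizontal axis), with circles for all 12 libraries (bar: SE) and squares without mKO ExE library 2, where Ttr and Apoa1 were not kept. The Apoe square lies within the error bar of its circle, and the squares of Apoc2, Amn, Rbp4 and Spink3 lie lower.

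Of all 31 tests of these genes in the 9 comparisons of knockout with WT, 0 passed (limma), and 7 had an unadjusted p under 0.05. The shares of all genes that passed were 0.0102% in FGO, 0.0116% at PN5, 0.00969% at L2C and 0.012% at 8C. They were 0.0407% in the first E3.5 table (0.0203% in each direction), 0.0539% in the second, 14.6% at E4.25, 0.00907% in E6.5 epiblast and 0% in E6.5 ExE. Of the 25 tests in the 7 comparisons of heterozygous with WT, 0 passed and 2 had an unadjusted p under 0.05. There 0.0272% of all genes passed in epiblast (0.0181% higher, 0.00907% lower) and 0% in FGO, PN5, L2C, both E3.5 tables and ExE. A test that passes so few genes says little about genes that did not pass.

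In E6.5 ExE, 5 of the 7 genes kept had an unadjusted p under 0.05 for mKO against WT, and all of these had higher means in mKO. Over all genes 854 of 11028 had such a p, 267 of them higher in mKO. Ttr, Apoc2 and Apoa1 reached 1 FPKM in no WT library of either tissue, so they entered the test through the other genotypes. The count of 5 therefore supports nothing beyond these values. Spink3 was at 11.6 ± 12.9 FPKM in mKO and listed at 0 in both WT libraries (log2 difference 3.13, SE 0.82, limma adjusted p = 0.409). Apoc2 was at 36.6 ± 48.8 in mKO and 0.214 ± 0.302 in WT (3.65, SE 0.99, limma adjusted p = 0.446). Ttr was at 3.42 ± 4.12 in mKO and listed at 0 in WT, and Apoa1 at 5.09 ± 6.85 against 0.280 ± 0.0284 (log2 differences 1.73 and 1.53, limma adjusted p = 0.523 and 0.628; SD, n = 2 in each group). The SDs are as large as the means because mKO library 2 carries them. Without that library Apoc2 stood 1.38 higher and Spink3 1.83 higher in the remaining mKO library. Without mKO library 1, the Apoc2 and Apoa1 differences were 5.91 and 3.10. That fit leaves library 2 as the single mKO library, so it describes this library and not the genotype.

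Apoe was not highest in mKO library 2. Both mKO ExE libraries, at 334 and 246 FPKM, were above the WT pair at 83.4 and 171 and the mHet pair at 197 and 163 (mKO against WT log2 difference 1.26, SE 0.46, limma adjusted p = 0.564). The difference was 0.74 without WT library 1 and between 1.04 and 1.77 with another of the 4 left out. In the epiblast the WT pair stood at 32.2 and 51.3, the mHet pair at 75.6 and 91.1 and the mKO pair at 111 and 52.6. All 4 mHet and mKO epiblast libraries lay above both WT libraries (mKO against WT 0.90, SE 0.46, limma adjusted p = 1). That difference was 0.36 without mKO library 3, 0.57 without WT library 3 and 1.43 without mKO library 4. The mHet and mKO comparisons share the WT pair. Groups of 2 can lie apart by chance, and the share of all genes that do so in either tissue is not given here. The mKO effect in ExE was also set against that in epiblast in 1 test, where 0 of 7 genes passed, as did 0% of all genes (limma, 1 gene with an unadjusted p under 0.05), with Apoe at 0.36 (SE 0.65, adjusted p = 0.973).

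At E4.25, the stage at which primitive endoderm lies next to the epiblast, Apoe varied widely between libraries. WT libraries were at 31.0, 28.3, 4.09 and 19.4 FPKM, the mHet sample at 59.7 and mKO libraries at 127, 252, 27.8 and 72.9. The lowest mKO library lay below the 2 highest WT libraries and the other 3 lay above all WT. The means were 120 ± 96.9 in mKO and 20.7 ± 12.1 in WT (SD, n = 4 each; log2 difference 2.37, SE 0.83), which did not pass (limma adjusted p = 0.0634). Here 14.6% of all genes passed and the median difference of all genes was 0.74, so levels in mKO were higher in general on this scale. With median-ratio scaling the Apoe difference was 1.36 (limma adjusted p = 0.273), and without mKO library 3 it was 2.92 and passed (0.0291).

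The E4.25 libraries form 2 runs of consecutive library names, and replicates 1 and 2 of WT and mKO are in the first run and 3 and 4 in the second. Apoe was higher in mKO within each run, at means of 189 against 29.6 FPKM in the first (log2 difference 2.55) and 50.3 against 11.7 in the second (2.18). With the run as a term, Apoe passed (limma adjusted p = 0.021). The share of all genes that passed in that fit is not given here, and 14.6% passed without the term.

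Spink3, Cubn and Amn showed another pattern at E4.25. Amn was at 13.3 and 13.5 FPKM in WT libraries 1 and 2, at 0.0307 and 0.753 in WT libraries 3 and 4, at 0.708 in mHet and at 0, 4.05, 1.33 and 0.294 in mKO. Cubn was at 6.86, 5.08, 0.0275 and 0.171 in WT, 0.95 in mHet and 0.633, 2.61, 1.15 and 0.032 in mKO. Spink3 was at 9.02, 7.35, 0 and 0.529 in WT, 3.41 in mHet and 0.731, 1.92, 6.27 and 0 in mKO. For all 3, WT libraries 1 and 2 were above every other library, and WT libraries 3 and 4 were below 1 FPKM. None passed in mKO against WT (log2 differences -1.16, -0.53 and -0.45, limma adjusted p = 0.274, 0.532 and 0.658).

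The direction of these 3 genes differed between the runs. In the first run the means were lower in mKO, by log2 differences of -2.68 for Amn, -1.51 for Cubn and -2.02 for Spink3, and in the second they were higher, by 0.37, 0.44 and 1.12. This difference between the runs was not tested. Y-linked transcripts summed to 35.4 and 51.7 FPKM in mKO libraries 1 and 2 and to 0 in mKO libraries 3 and 4. Run and sex therefore cannot be told apart in mKO. In WT the Y-linked sums were 21.4, 13.7 and 14.2 FPKM in libraries 1, 2 and 4, and library 3 had almost none. The list of visceral and primitive endoderm markers summed to 35.1 and 37.0 FPKM in WT libraries 1 and 2, 11.4 and 12.4 in WT libraries 3 and 4, 30.5 in mHet and 41.7 to 56.8 in mKO. The anterior visceral endoderm list summed to 21.4 and 25.8 FPKM in WT libraries 1 and 2, 0.362 and 2.18 in WT libraries 3 and 4, 6.27 in mHet and 2.75 to 7.39 in mKO. The parietal endoderm list summed to 126 and 89.1 FPKM in WT libraries 1 and 2 and to 3.98 and 9.00 in WT libraries 3 and 4, against 23.3 to 119 in mKO. WT library 3 stands apart, with a Rn45s share of 68.6% and a sum of 0.711 FPKM over the epiblast markers, where the other WT libraries had 33.9 to 110. Without it the Apoe difference was 1.77 (limma adjusted p = 0.098) and that of Amn -1.85 (0.0795). The part of these marker and Rn45s differences in the values was not tested.

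**Figure D5:**
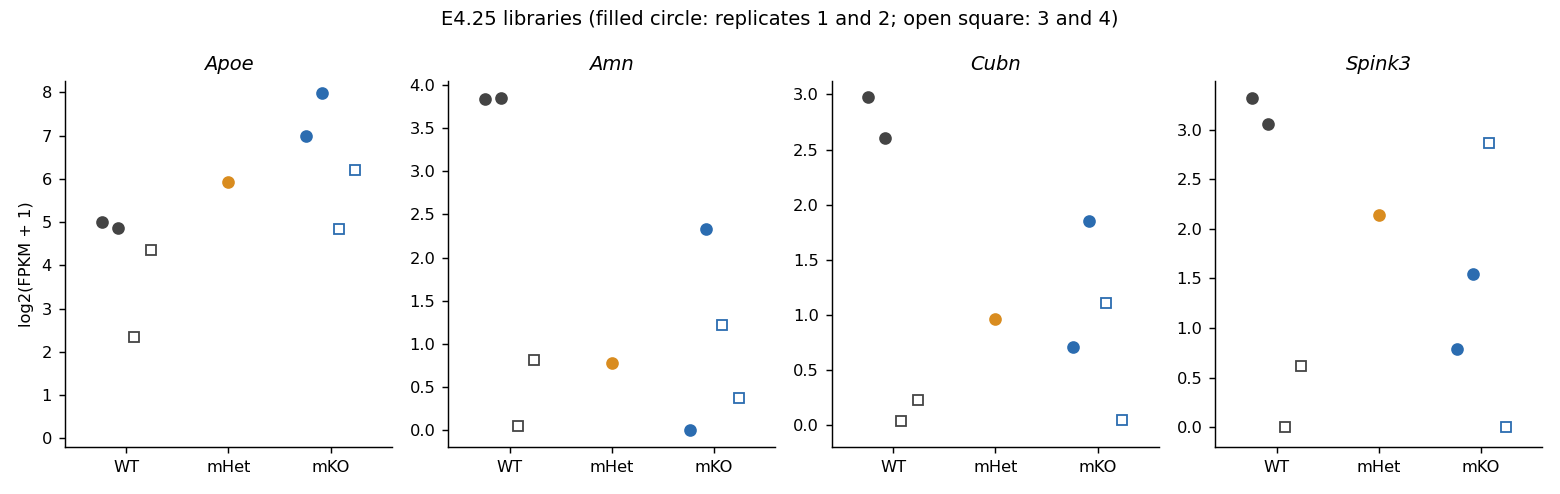
Points give log2(FPKM + 1) (vertical axes) of 4 genes in each E4.25 library by genotype (horizontal axes), with filled circles for replicates 1 and 2 and open squares for 3 and 4. Apoe is higher in mKO within each kind of symbol, and Amn, Cubn and Spink3 are highest in the filled WT circles.

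In E3.5 blastocysts the mHet and the mKO libraries each overlapped WT for each gene kept, except Apoe in mKO in the first table. There Apoe was at 67.0 and 129.9 FPKM in the WT pair, 126 and 79.6 in the mHet pair and 139 and 246 in the mKO pair. The WT libraries of this table held Y-linked transcripts and the mKO libraries almost none, so there sex and genotype cannot be told apart. In the second table Apoe was at 51.3 to 82.7 in WT (median 60.2), 33.0 to 59.6 in mHet (median 48.3) and 36.6 to 165 in mKO (median 82.0; mKO against WT log2 difference 0.29, SE 0.43, limma adjusted p = 1). Without mKO library 7 that difference was 0.0097. Apoa1 in the same table was at 5.61 to 39.9 in WT (median 11.5), 6.27 to 16.7 in mHet (median 7.16) and 3.47 to 35.1 in mKO (median 7.35). One WT library and 1 mKO library gave its highest values, and the difference was -0.25 (SE 0.56, limma adjusted p = 1). Cubn was at 0.520 to 1.24 in WT and 0.101 to 0.562 in mKO (-0.39, SE 0.20, limma adjusted p = 0.921).

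Before the blastocyst the tests concerned Apoe and Apoc2 alone. At L2C the Apoe values were 7.46 and 1.44 FPKM for WT, 6.66 and 6.18 for mHet and 13.6 and 10.6 for mKO, so that mKO lay above WT (log2 difference 1.52, SE 0.52, limma adjusted p = 0.544). Without WT library 2 the difference was 0.62 and without WT library 1 it was 2.41. Apoc2 also lay higher in mKO at L2C (0.76, SE 0.47, limma adjusted p = 0.796) and lower in mKO at 8C (-0.69, SE 0.35, limma adjusted p = 0.999), without overlap in either stage. Groups this small can lie apart by chance, and the share of all genes without overlap is not given here. The opposite directions of Apoc2 at L2C and 8C are therefore not read as a pattern. Neither Apoc2 difference passed, and the 8C table gave a single called gene.

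Other genes of lipoprotein assembly, of endocytic uptake and of retinoid handling were read from lists, beside 14.2% of all genes higher in ExE and 19.4% lower. Of 14 other lipoprotein genes, 7 were kept at E6.5 and 1 was higher and 1 lower in ExE (median log2 difference 0.25, against -0.11 over all genes). Apoc1, the apolipoprotein gene that lies between Apoe and Apoc2 in the RefSeq gene order, was at 143 ± 59.5 FPKM in ExE and 16.9 ± 8.40 in epiblast (SD, n = 6 each; 3.02, SE 0.30, limma adjusted p = 9.07e-06). Apoa2 was lower in ExE at 0.068 against 0.776 FPKM (limma adjusted p = 0.0329), a call that ended with any 1 of 7 libraries left out (up to 0.0979). Apom and Apoa4, also apolipoprotein genes, were at 30.1 and 21.0 FPKM in mKO ExE library 2 and at most 1.06 and 1.07 in the other ExE libraries, and Apom ranked 1st and Apoa4 4th by the gap described for that library. P4hb, a subunit of the lipid transfer complex that loads Apob, was at 118 ± 30.5 in ExE and 143 ± 26.5 in epiblast, and did not pass (limma adjusted p = 0.376).

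Of 14 other endocytic uptake genes, 10 were kept at E6.5, 1 higher and 3 lower in ExE (median 0.091). Lrp2, the receptor megalin that acts with cubilin, was at 0.325 ± 0.640 in ExE and 2.82 ± 0.434 in epiblast (-1.62, SE 0.22, limma adjusted p = 9.34e-05). Lrpap1, its chaperone, was also lower (limma adjusted p = 0.0422), a call that ended with any 1 of 9 libraries left out (up to 0.129). Dab2, an endocytic adaptor of megalin, did not pass and was at 8.05 FPKM in mKO ExE library 2 and at most 0.208 in the other ExE libraries. At E4.25, 2 of the 9 uptake genes kept were higher in mKO and 0 lower, where 14.3% of all genes were higher. Lrpap1 was at 57.3 ± 15.4 against 8.56 ± 6.31 FPKM (2.85, SE 0.66, limma adjusted p = 0.0151) and Dab2 at 26.8 ± 18.0 against 3.19 ± 2.71 (2.74, SE 0.68, limma adjusted p = 0.019; SD, n = 4 each). With median-ratio scaling both calls ended, at 1.89 and 2.02 (limma adjusted p = 0.0973 and 0.173). Without mKO library 4 both ended too (0.0614 and 0.0663), and without mKO library 2 that of Dab2 (0.0599).

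Of 11 retinoid handling genes, 5 were kept at E6.5, 3 higher and 2 lower in ExE (median 0.76). Cyp26a1, which breaks down retinoic acid, was at 60.4 ± 21.0 against 5.81 ± 6.74 FPKM (3.92, SE 0.70, limma adjusted p = 0.000918), and Rdh10, an enzyme of retinoic acid synthesis, was higher too (limma adjusted p = 0.0307), a call that ended with any 1 of 6 libraries left out. Crabp2, an intracellular carrier of retinoic acid, was at 0.388 ± 0.606 against 36.5 ± 13.3 (-4.76, SE 0.25, limma adjusted p = 1.8e-07), and Crabp1 was also lower. Of 16 other secreted plasma proteins, among them Trf, Alb and the fibrinogen genes, 0 were kept at E6.5, and their sum was at most 1.61 FPKM in any E6.5 library.

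The 10 genes most like the mean of the 10 transport genes were named from 5249 genes by the correlation of deviations from the tissue mean over the 12 E6.5 libraries. They were Polg (Pearson r 0.85, Spearman rho 0.56), Apopt1, Bok, AI662270, Ccdc12, Pcbd1, Ndufs8, Enkd1 and 2 rows that carry no gene symbol, with r down to 0.74. Without mKO ExE library 2 their r ranged from 0.46 to 0.86, and the points share tissue, library and dissection.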

How the data were processed

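The authors deposited 8 tables of FPKM, 1 per stage or pair of tissues, per the file headers. Tools named, without order, are HTSeq 0.6.0, HISAT2 2.2.1 and Trim Galore 0.4.2, with mm9 and hg19 as builds without a role, per the submitters' processing notes. The sources used here give no FPKM tool, annotation, strand or treatment of multi-mapping reads, so overlapping or near-identical genes are uncertain.

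Columns were matched to samples by title. Epiblast columns carry numbers 3 and 4 where the titles have others, and were matched to their group. Of 68 libraries 67 were used. Names turned into dates (25, 27 and 27 in 3 tables) were dropped. No step worth 1 read was found in low values (commonest ratio in at most 5.74% of low genes), so no counting interval is given.

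Each table was fitted alone. A gene was kept if 2 or more libraries reached 1 FPKM. Values were taken as log2(FPKM + 1), which understates changes of low genes, and all genotypes entered a limma model of group means (version 3.58.1, R 4.3.3; lmFit, eBayes with trend). Contrasts were knockout and heterozygous against WT, ExE against epiblast and the tissue difference of the mKO effect. P-values are two-sided and adjusted by Benjamini and Hochberg over all genes kept, with a threshold of 0.05. The 10 members and the lists were chosen with earlier results of these data known. Named besides the members were up to 4 genes of a list with the highest mean at E6.5, list genes past the threshold, and 10 genes by likeness (at least 10 FPKM in 2 or more libraries). Apom, Apoa4, Dab2 and single markers were named after their values were seen, as were the motifs. Some genes of the other lists are counted but not reported singly here.

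Alternatives were a pseudocount of 0.1, no filter, median-ratio scaling, Rn45s removed with the rest rescaled, a fit of only the 2 groups compared, a replicate block, the run of library names, WT libraries only, and each library left out, a lone library then being given the spread of the others. Tested on simulated data, the fit recovered 53.7%, 97.0% and 100% of genes changed by log2 1, 2 and 4 between the E6.5 tissues (11028 genes). It recovered 10.4%, 71.6% and 95.5% for mKO against WT in ExE and, over 9550 genes, 5.97%, 25.4% and 90.9% at E4.25.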

Additional observations from a re-analysis of the deposited data

Results flagged for a closer look

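Groups of 4 or 5 libraries were searched for a sample far from the others on the log2(FPKM + 1) scale, for genes reaching 1 FPKM in the group. Of 21 sets of 1 gene in 1 group, 2 held one. Both sets reached 1 FPKM through the flagged library alone, so no chance rate is set beside them. Amn in the second E3.5 table was at 1.62 FPKM in mHet library 7 and at most 0.136 in the other 4 mHet libraries. Afp at E4.25 was at 1.00 FPKM in WT library 1 and at most 0.0838 in the other WT libraries.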

How the results depend on the processing

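The 19 median levels by stage moved by less than the spread between libraries under Rn45s removal, median-ratio scaling and each library left out. The count of genes past the threshold was 0 in each knockout and heterozygous comparison. At E4.25 it became 1 with the library run as a term and 0 to 1 with a library left out. In ExE and in the first E3.5 table, where groups hold 2 libraries, leaving 1 out leaves a lone library. Counts from such fits are not given. For ExE against epiblast the count of 3 became 1 without the filter, where more genes were tested, and 1 to 6 with a library left out. The tissue difference of the mKO effect rests on groups of 2 as well, and its counts with a library omitted are not given. With the replicate number as a block the E4.25 count was 1 (Apoe, limma adjusted p = 0.0133) and the other counts stayed at 0. The share of all genes passing at E4.25 with the run or the block is not given here. Same-numbered E4.25 libraries of WT and mKO deviated together by r of 0.059 to 0.14. They also lie in the same run of library names, and what else they share is not known. With a library left out, 2 values turned direction: Spink3 in mKO against WT at E4.25 (-1.03 to 0.075) and Apoa1 in the second E3.5 table (-0.68 to 0.16). The cause was not tested. Depth is unknown, groups of 2 limit most comparisons, and values below 1 FPKM are near the floor of the tables. Where genotypes are said to lie apart or not to overlap, the share of all genes that do so is not given. Such statements describe the libraries only.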
